A study of Mus musculus with 8 samples.

Results

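Cardiac transcription factors were examined in ventricular mRNA of mice bearing Lewis lung carcinoma. The 10 genes are Gata4, Gata6, Mef2a, Mef2c, Mef2d, Tbx5, Tbx20, Nkx2-5, Hand2 and Srf, found by their symbols among the 43346 genes of the count table. All 10 passed edgeR's filter on low counts and were among the 16111 genes tested. The tumor-bearing group was 4 male C57BL/6 mice given 1000000 LLC1 cells, a mouse lung adenocarcinoma line, under the skin of the left flank at 7 weeks of age. The comparison group was 4 male C57BL/6 mice of the same age given the vehicle, phosphate-buffered saline (PBS), and all ventricles were taken at day 14. The tumor was therefore an implanted cell line in young males, and both groups had received an injection. Mice are named by their injection and the replicate code of their label, such as PBS 1-1.

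These factors bind DNA in combination at the promoters and enhancers of heart muscle genes, and most of them are needed for the heart to form in the embryo. GATA4 and GATA6 are zinc-finger proteins, the MEF2 proteins and SRF share the MADS-box DNA-binding domain, TBX5 and TBX20 are T-box proteins, NKX2-5 is a homeodomain protein and HAND2 is a basic helix-loop-helix protein. In the adult ventricle they maintain the expression of contractile, ion channel and metabolic genes, and several of them take part in the growth response to load. Their mRNA level is only 1 layer of their control, since GATA4, MEF2 and SRF are also regulated by phosphorylation, by partners such as myocardin and by histone deacetylases. Neither protein nor binding was measured in these data.

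Library totals ran from 12480706 to 19747596 counts. PBS 1-1, the shallowest library, stood apart from the rest. The first principal component (31.5% of the variance) separated the groups, and the second (25.2%) placed PBS 1-1 at 35.3 and the other 7 mice between -23.3 and 8.71. Its Ttn mRNA, which encodes the giant sarcomere protein titin, was 18482 counts per 1000000 counts (CPM) against 7892.8 to 9030.4 CPM in the other 7 mice. Each result on the factors is therefore given with and without this mouse where its call differed. In bulk ventricle, fewer cells of a type and less RNA per cell cannot be told apart.

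With all 8 mice, none of the 10 factors differed between tumor-bearing and PBS-injected mice by edgeR's quasi-likelihood test at a threshold of 0.05 on the false discovery rate, FDR (0 of 10). Across all genes tested, 1406 of 16111 passed (8.73%). At an unadjusted p under 0.05 the edgeR test gave 2 of the 10 factors, Mef2c and Gata6, against 25.5% of all genes, and DESeq2 also called 0 of 10, where it called 10.9% of all genes. The log2 fold change, LLC1 over PBS, was above 0 for 7 factors and below 0 for 3, whereas 47.9% of all genes had a value above 0. The median log2 fold change of the 10 was 0.11 and that of all genes tested was -0.01. In absolute size the median was 0.17 for the factors and 0.15 for all genes. For 9 of the 10 factors the 95% interval of the log2 fold change lay within ±0.58, which is a 1.5-fold change either way. The exception was Nkx2-5, whose interval ran from -0.25 to 0.65. These intervals rest on all 8 mice and do not show that the levels were equal. Without PBS 1-1 the upper limits were 0.70 for Nkx2-5, 0.51 for Hand2, 0.45 for Gata6 and 0.40 for Srf.

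**Figure D1:**
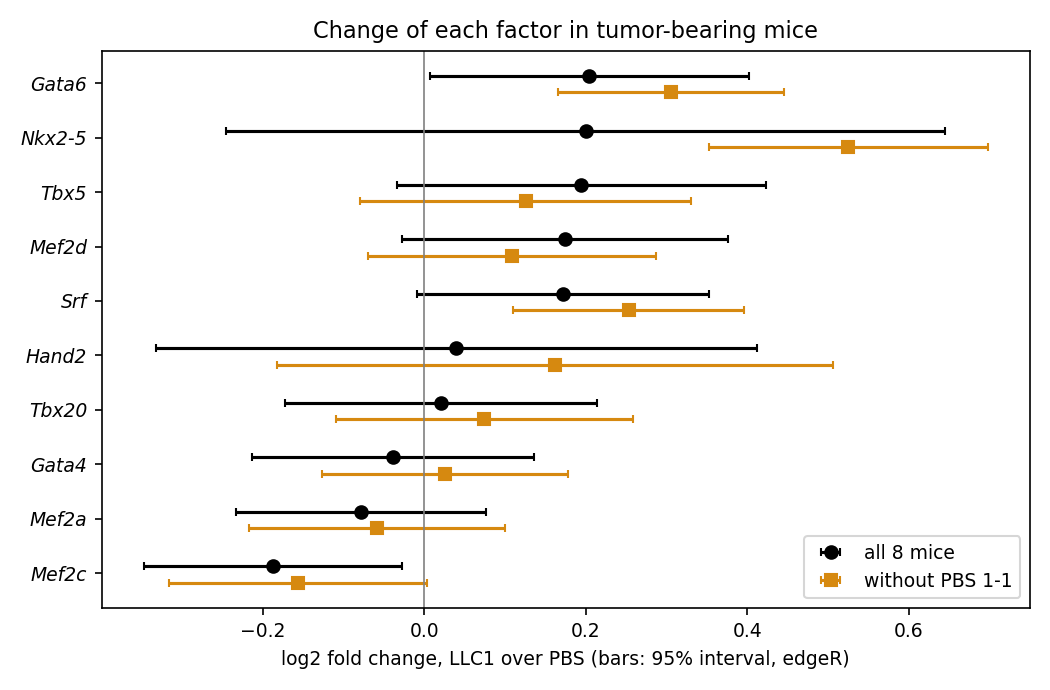
Log2 fold change of each factor, LLC1 over PBS, with its 95% interval from edgeR (horizontal axis, log2 scale), for all 8 mice (black circles, n = 4 per group) and without PBS 1-1 (orange squares, 4 against 3 mice). The squares of Gata6, Nkx2-5 and Srf lie to the right of 0 with their whole interval, and the interval of Nkx2-5 is much narrower without PBS 1-1.

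Leaving out PBS 1-1 changed the call for 3 factors. Nkx2-5, Gata6 and Srf then passed the edgeR test, all higher in LLC1, where 11.9% of all genes passed in either direction and 5.61% passed as higher. Nkx2-5 had a log2 fold change of 0.53 ± 0.08 (SE), which is 1.44-fold, with an FDR of 0.00169. Gata6 had 0.31 ± 0.06 with an FDR of 0.0100, and Srf had 0.25 ± 0.07 with an FDR of 0.0263. The other 7 factors stayed above the threshold, with FDR values between 0.193 for Mef2c and 0.854 for Gata4. The GC content of the longest transcript was 67.1% for Nkx2-5, 55.3% for Gata6 and 64.4% for Srf, and between 40.8% and 59.3% for the other 7 factors. When offsets that remove each library's trend with GC content were used without PBS 1-1, Gata6 (0.26, FDR 0.0121) and Nkx2-5 (0.27, FDR 0.0236) passed and Srf did not, in a fit that called 11.6% of all genes. With total-count scaling and without PBS 1-1, Nkx2-5 passed as higher and Mef2c as lower, but Gata6 and Srf did not pass. The removal of PBS 1-1 rests on its overall profile and was 1 of the 8 such removals made.

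The promoters of the factors show which of them carry the binding motifs of the group in the 250 bases before their starts. RefSeq windows (GRCm38.p6) were at hand for 7 of the 10 genes, 9 windows in all, and entries for Gata4, Gata6 and Tbx5 were not used here. Both strands were searched for GATAA (the GATA motif), CANNTG (the E-box bound by basic helix-loop-helix proteins), CAAGTG (an NK homeodomain motif, which is also an E-box by its letters), GGTGTG (a T-box half-site), the CArG box bound by SRF and the MEF2 box. 4 windows are shown, those of Nkx2-5 and Srf because their call depended on 1 mouse, that of Hand2 as the most variable factor in PBS mice without PBS 1-1, and that of Mef2c as the factor whose groups did not overlap. Of the 3 Mef2c windows, the one with GATA motifs was chosen after the motifs were seen. Capitals mark CArG boxes and GATA motifs, 5′ to 3′ on the strand of the gene.
Srf, chr17:46556163-46556412, minus strand: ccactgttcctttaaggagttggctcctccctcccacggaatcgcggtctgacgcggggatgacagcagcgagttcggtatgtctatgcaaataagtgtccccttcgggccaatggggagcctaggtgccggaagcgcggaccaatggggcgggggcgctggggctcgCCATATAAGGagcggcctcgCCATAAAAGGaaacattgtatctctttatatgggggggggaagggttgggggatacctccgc
Nkx2-5, chr17:26841566-26841815, minus strand: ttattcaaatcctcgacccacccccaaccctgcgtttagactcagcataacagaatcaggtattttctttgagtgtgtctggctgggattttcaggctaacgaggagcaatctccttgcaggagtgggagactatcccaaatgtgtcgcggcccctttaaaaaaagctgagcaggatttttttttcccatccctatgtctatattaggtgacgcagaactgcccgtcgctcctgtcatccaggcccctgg
Hand2, chr8:57320733-57320982, plus strand: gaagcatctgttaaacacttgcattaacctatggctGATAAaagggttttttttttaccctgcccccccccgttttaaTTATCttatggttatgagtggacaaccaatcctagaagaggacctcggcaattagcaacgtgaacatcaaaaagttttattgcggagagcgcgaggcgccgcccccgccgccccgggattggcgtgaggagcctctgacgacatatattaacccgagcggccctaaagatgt
Mef2c, the second of 3 windows, chr13:83523406-83523655, plus strand: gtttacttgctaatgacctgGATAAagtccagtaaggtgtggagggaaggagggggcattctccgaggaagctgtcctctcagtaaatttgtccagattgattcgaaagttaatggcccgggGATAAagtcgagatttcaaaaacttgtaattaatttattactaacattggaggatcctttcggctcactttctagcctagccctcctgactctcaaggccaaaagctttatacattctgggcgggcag
The Srf window held 2 CArG boxes, from -82 to -73 and from -62 to -53 relative to the start. A CArG box was found in 1.47% of the 32851 mouse windows of the same length, and in no other window of the factors. The Hand2 window held 2 GATA motifs, at -214 to -210 and, on the opposite strand, at -172 to -168, and the Mef2c window held 2, at -230 to -226 and -128 to -124. GATA motifs were thus in 2 of the 9 windows of the factors, near the 22.6% of all windows that held one. The Nkx2-5 window had neither, only an E-box at -113 to -108, a motif present in 66.2% of all windows. The MEF2 box was in none of the 9 windows and in 2.92% of all. The T-box half-site, in 16.3% of all windows, was found among the factors only in the Mef2c window printed, and CAAGTG, in 11.6% of all, was found in the windows of Hand2 and in the first of Mef2c. A match to these letters is a description of the sequence and not evidence of binding.

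The GATA factors came first. Gata4 (chr14:63198922-63271692), which encodes a zinc-finger activator of contractile and natriuretic peptide genes, was measured at 111.3, 110.6, 112.5 and 107.6 CPM in LLC1 mice 1-2, 1-3, 1-5 and 2-2. In PBS mice 1-1, 1-3, 2-1 and 2-5 it was 128.8, 109.3, 118.8 and 97.5 CPM. All 4 tumor-bearing mice lay inside the range of the PBS mice. This gave a log2 fold change of -0.04 ± 0.08 (SE) with an FDR of 0.803 and an exact permutation p of 0.714 (n = 4 per group, two-sided). Without PBS 1-1 the sign turned to 0.03 (FDR 0.854).

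Gata6, on chromosome 18, encodes the paralog that overlaps GATA4 in function in the myocardium. Its levels were 58.5, 59.5, 60.0 and 61.5 CPM in the tumor-bearing mice, in the same order as above, and 63.0, 48.2, 45.4 and 51.8 CPM in the PBS mice. PBS 1-1 was the highest of the 8 mice, and the other 3 PBS mice were all below the 4 tumor-bearing mice. The log2 fold change was 0.20 ± 0.09 with an FDR of 0.182 and an exact permutation p of 0.143 (n = 4 per group). The noncoding gene 1010001N08Rik starts beside Gata6 on the other strand and shares 1.43% of its exon bases in GENCODE M21. Its level was 12.8 ± 0.843 CPM (SD) in LLC1 and 10.3 ± 1.29 CPM in PBS mice (n = 4 each, FDR 0.0839).

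By the length in the count table the MEF2 family includes the most abundant factor, and it also includes the factor with the lowest p. Mef2a (chr7:67231163-67372858), whose protein is the main MEF2 activator of adult muscle metabolic and contractile genes, was at 187.3, 209.4, 192.6 and 189.3 CPM in LLC1 mice and at 214.1, 203.3, 221.3 and 183.2 CPM in PBS mice. The ranges overlapped and PBS 2-5 was the lowest of the 8. Its log2 fold change was -0.08 ± 0.07 (FDR 0.528, exact permutation p 0.314, n = 4 per group).

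Mef2c (chr13:83504034-83667079), which is needed for looping of the embryonic heart and for the right ventricle, was at 61.1, 64.2, 63.0 and 63.3 CPM in LLC1 mice. In PBS mice it was 76.4, 65.1, 78.9 and 66.2 CPM. Every tumor-bearing mouse was below every PBS mouse, although PBS 1-3 and 2-5 lay only just above the tumor-bearing mice. Mef2c was the 1 factor of 10 whose groups did not overlap, where 17.2% of all genes tested had groups that did not overlap and 8.27% had LLC1 entirely lower. The log2 fold change was -0.19 ± 0.07 with an unadjusted p of 0.0257 and an FDR of 0.136, and the exact permutation p of 0.0286 is the smallest that 4 against 4 mice can give. With GC offsets the log2 fold change was -0.08 (FDR 0.505). Its FDR over the alternative settings ran from 0.0496 to 0.506, the lowest with total-count scaling and without PBS 1-1.

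Mef2d (chr3:88142372-88172086), a MEF2 factor linked to stress-dependent remodelling, was at 184.0, 221.6, 201.6 and 234.1 CPM in LLC1 mice and at 160.1, 182.1, 202.6 and 200.5 CPM in PBS mice. PBS 1-1 was the lowest of the 8, the reverse of its place for Gata4 and Gata6. Its log2 fold change was 0.17 ± 0.09 (FDR 0.262, exact permutation p 0.143, n = 4 per group). In M21, 8.87% of its exon bases also belong to the noncoding gene 1700113A16Rik on the other strand, which had 11.6 to 15.6 CPM in the 8 mice.

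The T-box factors did not pass either. Tbx5 (chr5:119834663-119885218), a partner of GATA4 and NKX2-5 and the gene of Holt-Oram syndrome in humans, was at 27.7, 25.2, 29.2 and 31.2 CPM in LLC1 mice and at 20.8, 22.6, 27.0 and 28.2 CPM in PBS mice. PBS 1-1 was again the lowest, and the groups overlapped. Tbx5 had a log2 fold change of 0.19 ± 0.11 (FDR 0.269, exact permutation p 0.171, n = 4 per group). The first number of the replicate code (1 or 2), whose meaning the labels do not give, bore on this gene. PBS mice with code 1 had lower Tbx5 than those with code 2. Within code 1 the log2 difference was 0.33 (3 LLC1 against 2 PBS mice) and within code 2 it was 0.18 (1 against 2). With that number as a covariate Tbx5 had a log2 fold change of 0.27 and an FDR of 0.0489, in a fit that called 10.4% of all genes.

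Tbx20 (chr9:24720812-24774303), which encodes a T-box protein that maintains adult cardiomyocyte function, was at 143.6, 160.5, 147.7 and 152.8 CPM in LLC1 mice. The PBS mice were at 165.7, 151.1, 157.8 and 121.8 CPM. The tumor-bearing mice lay inside the PBS range. Its log2 fold change was 0.02 ± 0.09 (FDR 0.913), and its sign turned with total-count scaling (-0.03) and when LLC1 1-3 (-0.01) or PBS 2-5 (-0.07) was left out.

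**Figure D2:**
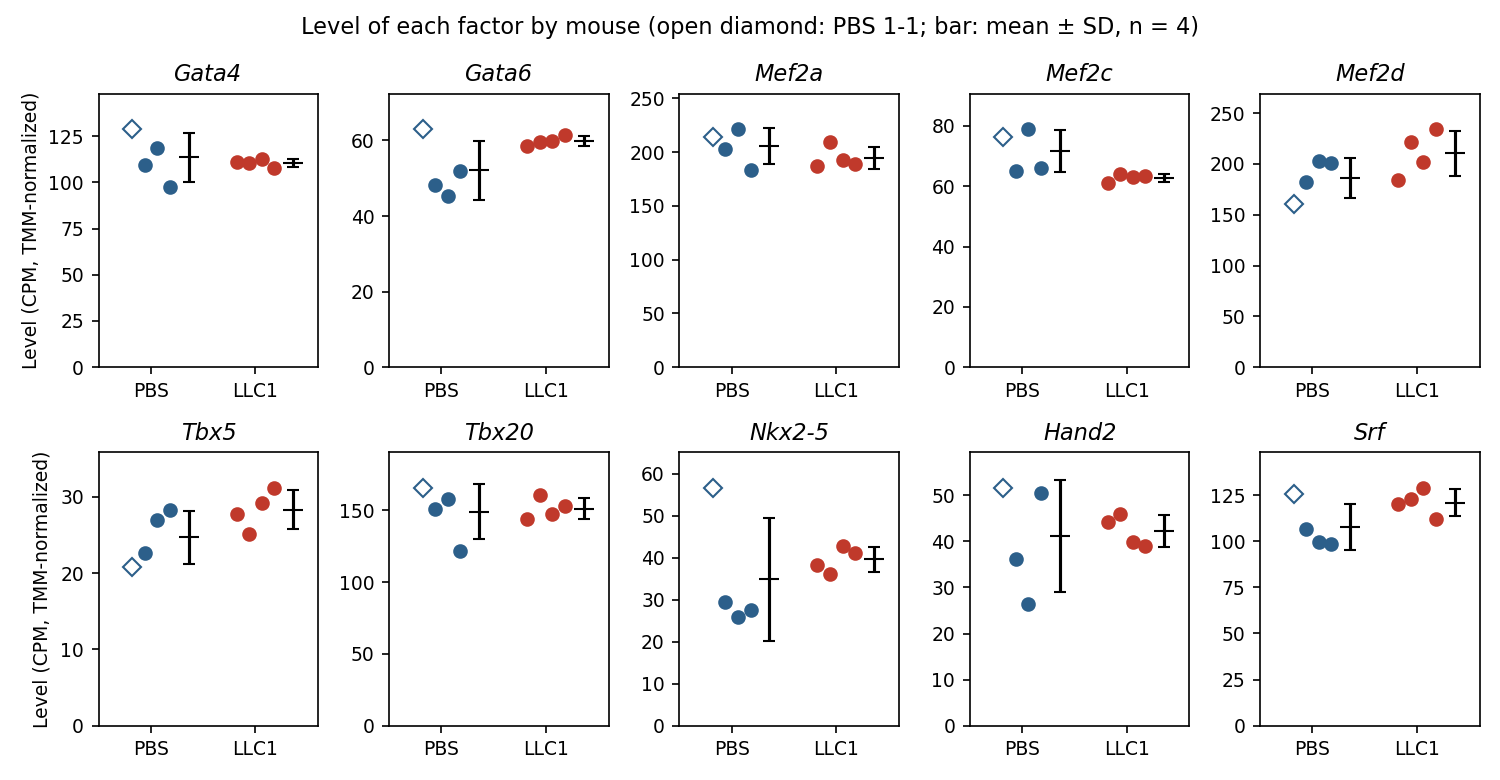
Level of each factor in each mouse (vertical axes, TMM-normalized CPM from 0, with a separate scale per gene), PBS in blue and LLC1 in red, with the mean ± SD of 4 mice as a black bar. The open diamond is PBS 1-1, which is the highest point for Gata4, Gata6, Tbx20, Nkx2-5 and Hand2 and the lowest for Mef2d and Tbx5.

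Nkx2-5 (chr17:26838664-26841565) encodes the homeodomain factor that marks the cardiac lineage from its first progenitors and supports the conduction system. It was at 38.4, 36.1, 42.9 and 41.2 CPM in LLC1 mice and at 56.7, 29.4, 25.8 and 27.6 CPM in PBS mice. The values of PBS 1-3, 2-1 and 2-5 were close together and all below the tumor-bearing mice, while PBS 1-1 was above them all at 2.05 times the mean of the other PBS mice. With 8 mice the log2 fold change was 0.20 ± 0.20 with an FDR of 0.579 (exact permutation p 0.400, n = 4 per group). Without PBS 1-1 the PBS mean was 27.6 ± 1.83 CPM (SD, n = 3) against 39.7 ± 2.99 CPM in LLC1 (n = 4).

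Hand2 (chr8:57320983-57324517), a basic helix-loop-helix factor of the right ventricle and of cardiac fibroblasts and sympathetic neurons, was at 44.2, 46.0, 39.9 and 38.9 CPM in LLC1 mice. The PBS mice were at 51.7, 36.2, 26.4 and 50.4 CPM, with 2 above and 2 below the whole tumor-bearing group. Hand2 had a log2 fold change of 0.04 ± 0.17 (FDR 0.913). Its sign turned in 6 of the 22 alternative settings, such as without PBS 2-1 (-0.13). Hand2 shares 19.61% of its M21 exon bases with Hand2os1 on the other strand, which the count table lists as AV026068 by its gene ID. A second entry of the table, the antisense gene Gm28063, lies inside the span of Hand2. Gm28063 was at 16.8, 17.3, 14.8 and 14.0 CPM in LLC1 mice and at 15.5, 14.1, 10.5 and 18.2 CPM in PBS mice. Its log2 level followed that of Hand2 over the 8 mice (Pearson r 0.926, a description over libraries that share their depth), and that of AV026068 did so less closely (r 0.715). The strand setting of the counting is not given in the sources used here. Over the stretches they share, reads of Hand2 and of its antisense partners therefore cannot be told apart.

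Srf (chr17:46546839-46556162) encodes the MADS-box factor that drives sarcomeric and cytoskeletal actin genes with myocardin and immediate early genes with ETS partners. It was at 119.9, 123.1, 129.0 and 111.8 CPM in LLC1 mice and at 125.4, 106.4, 99.3 and 98.7 CPM in PBS mice. As for Nkx2-5 and Gata6, the 3 other PBS mice were below all tumor-bearing mice and PBS 1-1 was within or above their range. How many of all genes share this pattern was not counted, so it is not read as a trait of these factors. With 8 mice the log2 fold change was 0.17 ± 0.08 (FDR 0.218, exact permutation p 0.114, n = 4 per group). Srf lies within the long span of the noncoding gene Gm26904, which had 2.35 to 3.42 CPM.

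PBS 1-1 was the highest of the 8 mice for 5 of the 10 factors, against 25.4% of the 6834 genes with a mean of at least 20 CPM. Its profile had a trend with base composition. Its log2 level minus that of the other PBS mice had a median of 0.13 over the 20% of genes with the lowest GC content and -0.13 over the 20% with the highest. Nkx2-5, Srf, Hand2 and Gata4 belong to the genes of highest GC content (55.5% and above), and 3 of them were among the 5 factors that were highest in PBS 1-1. Tbx20, Mef2a and Mef2c belong to those of lowest (44.0% and below). The group difference also had a GC trend. LLC1 minus PBS had a median of -0.11 log2 in the genes of lowest and 0.11 in those of highest GC content. With GC offsets and all 8 mice, 0 of 10 factors passed, against 8.12% of all genes, and Mef2a and Hand2 turned sign (0.02 and -0.05). The log2 fold changes of Srf (0.04), Nkx2-5 (0.10), Gata6 (0.13), Mef2d (0.11) and Mef2c (-0.08) were smaller in that fit than without offsets, while those of Gata4 (-0.13) and Tbx20 (0.12) were larger in size. The part of base composition in the differences of single factors was not tested.

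The spread between mice relative to the mean was wider in the PBS group for most factors. The coefficient of variation over 4 mice was higher in PBS than in LLC1 mice for 10 of 10 factors, with medians of 12.3% and 5.54%, although for Mef2d the values were nearly equal (10.6% and 10.5%) and its SD was larger in LLC1 mice (22.1 against 19.8 CPM). Among genes with a mean of at least 20 CPM it was higher in PBS for 72.4%, with medians of 8.45% and 5.77%. Without PBS 1-1 it was higher in PBS for 7 of 10 factors, against 56.2% of those genes. The lowest values in LLC1 were those of Gata4 (1.89%), Gata6 (2.09%) and Mef2c (2.10%). The highest in PBS were those of Nkx2-5 (41.9%) and Hand2 (29.3%), and Hand2 kept 32.0% without PBS 1-1, while Nkx2-5 went to 6.64%.

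Per kilobase of the gene length in the count table, Mef2d and Mef2a were the highest factors and Tbx5 the lowest. The mean over 8 mice of CPM per kilobase was 33.1 for Mef2d, 31.8 for Mef2a, 28.7 for Gata4, 27.9 for Srf and 24.4 for Nkx2-5. It was 21.8 for Tbx20, 18.7 for Hand2, 17.5 for Gata6, 9.95 for Mef2c and 6.72 for Tbx5. The ranges of most neighbours in this order overlapped over the 8 mice. The steps without overlap were from Gata6 (14.2 to 19.7) to Mef2c (9.03 to 11.7) and from Mef2c to Tbx5 (5.29 to 7.92). Within a mouse, Mef2a was above Gata4 in 8 of 8 mice although their ranges overlapped, and Srf was above Nkx2-5 and Tbx20 above Hand2 in 7 of 8 each. Nkx2-5 was above Tbx20 in 6 of 8, and Mef2d above Mef2a, Gata4 above Srf and Hand2 above Gata6 in 5 of 8 each. By group, Mef2d led in LLC1 mice (35.1 ± 3.69, SD, n = 4) and Mef2a in PBS mice (32.7 ± 2.64, SD, n = 4), and the order from Nkx2-5 downward was the same in both groups. The order depended on the length used. With the longest M21 transcript in place of the length in the count table, Srf came first at 43.7 CPM per kilobase, followed by Mef2d (36.7), Mef2a (36.1) and Gata4 (33.0). Counting all M21 exon bases, Mef2a has 14681, Mef2c 15715 and Tbx20 11997, against 6283, 6760 and 6884 bases in the count table. The order by that length was not computed.

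**Figure D3:**
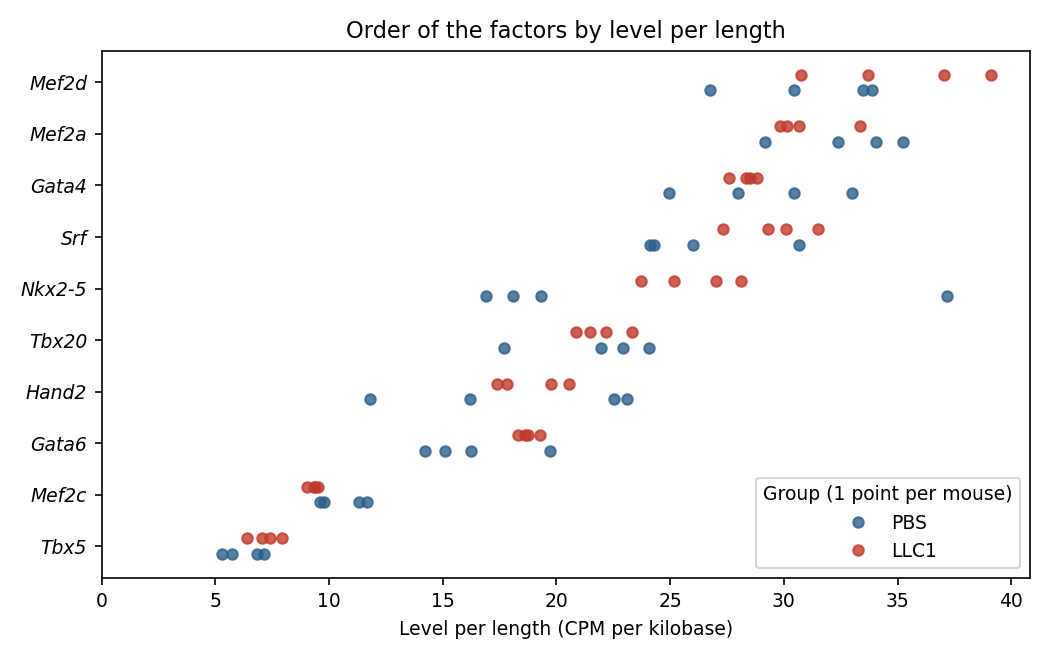
Level of each factor per kilobase of the length given in the count table (horizontal axis, CPM per kilobase from 0), 1 point per mouse, PBS in blue and LLC1 in red, ordered by the mean over 8 mice. Mef2c and Tbx5 stand below the other 8 factors without overlap, and Nkx2-5 in PBS 1-1 lies at 37.2, far from the other PBS mice.

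Ratios of factors within a mouse do not depend on library scaling, and 5 were compared. The ratio of Srf to Mef2a per length was 0.983, 0.903, 1.03 and 0.907 in LLC1 mice and 0.900, 0.804, 0.689 and 0.827 in PBS mice, with no overlap. The log2 difference was 0.25, with an exact two-sided permutation p of 0.0286 and 0.143 after Benjamini-Hochberg adjustment over the 5 ratios. The unadjusted value was 0.0571, the next that the design allows, in 5 of the 8 sets that left out 1 mouse. The ratio of Gata6 to Gata4 had a geometric mean of 0.662 in LLC1 and 0.559 in PBS mice (log2 difference 0.24, exact permutation p 0.0571, adjusted 0.143). PBS 2-5 was the 1 control inside the tumor-bearing range, at 0.650. The ratio of Mef2d to Mef2a was 1.13 against 0.950 and that of Mef2c to Mef2a 0.301 against 0.324, both with an exact permutation p of 0.114 and an adjusted p of 0.143. The ratio of Tbx5 to Tbx20 was 0.326 against 0.289 (exact permutation p 0.400, adjusted 0.400). None of the 5 passed after adjustment with 8 mice. The ratios were not corrected for GC content, and the fitted log2 fold changes with GC offsets were 0.04 for Srf and 0.02 for Mef2a. PBS 2-5 was also the only control inside the tumor-bearing range for Mef2d to Mef2a, at 1.149 against 1.032 to 1.298. Leaving it out therefore removes the overlap for that ratio and for Gata6 to Gata4 by construction. Without PBS 2-5 the log2 difference was 0.32 for Gata6 to Gata4, 0.34 for Mef2d to Mef2a and 0.27 for Srf to Mef2a. Each then had an adjusted exact permutation p of 0.0476. That set was 1 of the 8, and these p-values are not read as a result.

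**Figure D4:**
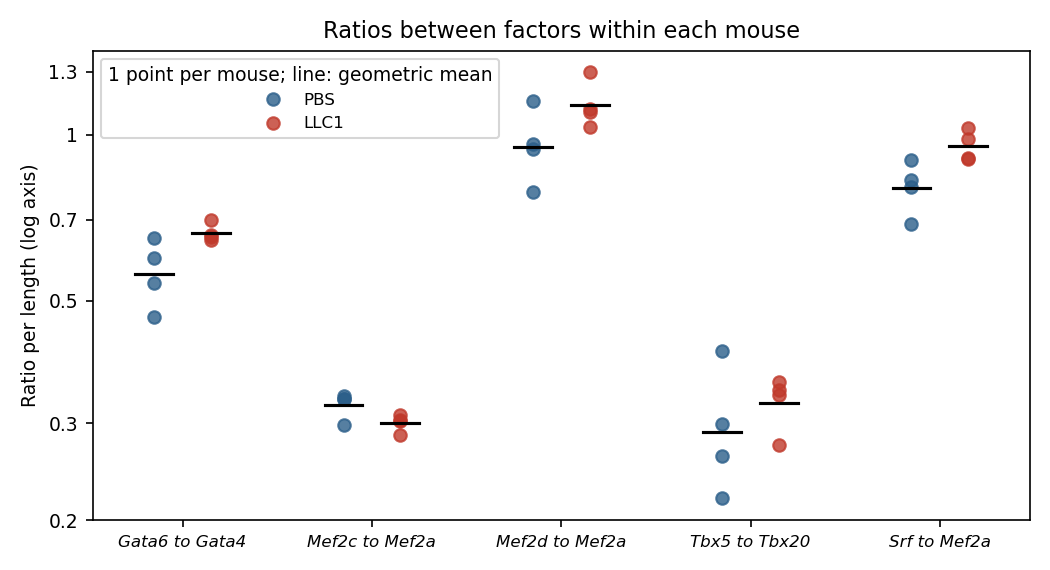
Ratio of 2 factors within each mouse, each taken per length (vertical axis, logarithmic), for PBS (blue) and LLC1 (red) mice, with a line at the geometric mean of 4 mice. The red and blue points of Srf to Mef2a do not overlap, and those of the other 4 ratios do.

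Other cardiac developmental transcription factors were examined beside the 10. Of the 16 listed, 10 were tested and 0 passed with edgeR in either direction and 0 with DESeq2 (median log2 fold change -0.02), while 3 had an unadjusted edgeR p under 0.05. The shares over all genes were 8.73%, 10.9% and 25.5%, in that order. Without PBS 1-1, 2 passed as higher, where 5.61% of all genes did. These were the Iroquois genes Irx3 and Irx5, which pattern ventricular repolarization. Irx3 was at 21.1 ± 2.81 CPM in LLC1 and 16.1 ± 3.04 CPM in PBS mice (SD, n = 4), with an edgeR FDR of 0.0905 with all mice and 0.0189 without PBS 1-1. Irx5 was at 4.34 ± 0.295 and 3.01 ± 0.964 CPM, with FDR values of 0.108 and 0.0135. Isl1 and Nkx2-6, factors of heart progenitors, had a count of 0 in all 8 mice.

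Among 20 cofactors and chromatin regulators of the factors, 2 rose and 0 fell in tumor-bearing mice by edgeR (median log2 fold change 0.04, or -0.0096 with total-count scaling), a count near the 8.73% of all genes that passed. Hdac5, a class IIa histone deacetylase that binds and represses MEF2, was at 164, 179, 164 and 180 CPM in LLC1 mice and at 136, 133, 139 and 135 CPM in PBS mice. The groups were well apart, with a log2 fold change of 0.34 ± 0.06 and an FDR of 0.00701. Cited2, a coactivator that bridges TFAP2 and p300, was at 37.4, 35.0, 49.5 and 54.6 CPM in LLC1 mice and at 25.1, 19.8, 30.7 and 23.3 CPM in PBS mice (log2 fold change 0.84 ± 0.16, FDR 0.00922). The other class IIa deacetylases Hdac4, Hdac7 and Hdac9 had log2 fold changes of 0.14, 0.09 and 0.11 and did not pass. Neither did the SRF coactivator Myocd (-0.03, FDR 0.903) nor the GATA cofactor Zfpm2 (0.08, FDR 0.526). The calls for Hdac5 and Cited2 held without PBS 1-1.

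Of 24 cardiomyocyte genes known as targets of these factors, 3 rose and 0 fell by edgeR (median log2 fold change 0.13), where 8.73% of all genes passed, and DESeq2 called 6, where it called 10.9% of all genes. Mybpc3, which encodes cardiac myosin-binding protein C, was at 6270 ± 139 CPM in LLC1 and 4970 ± 156 CPM in PBS mice (SD, n = 4), a log2 fold change of 0.34 ± 0.06 with an FDR of 0.00678. Myh6, the fast cardiac myosin heavy chain, was at 54300 ± 1430 and 45900 ± 1230 CPM (0.24 ± 0.06, FDR 0.0209). Ckm, the muscle creatine kinase and a classic MEF2 target, was at 2610 ± 163 and 2130 ± 144 CPM (0.29 ± 0.07, FDR 0.0285). The groups did not overlap for any of these 3 genes, which were picked by their FDR. Groups did not overlap for Actn2, Tnnt2, Tnnc1 and Myl3 of this list either, which edgeR did not call. The share over all genes tested was 17.2%. Without PBS 1-1, 6 of the 24 passed, all higher, where 5.61% of all genes passed as higher. The natriuretic peptide genes Nppa and Nppb, which GATA4 activates under load, had log2 fold changes of 0.26 (FDR 0.622) and -0.30 (FDR 0.602). Nppb was at 366 CPM in PBS 1-1, and without that mouse its log2 fold change turned to 0.07 (FDR 0.897).

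The targets of SRF fell into 2 lists. Of 12 cytoskeletal targets, 1 passed by edgeR with all 8 mice, Actb, lower in LLC1, against 8.73% of all genes. The median log2 fold change of the list was -0.16, but -0.28 without LLC1 2-2 and -0.24 when a count of 10 or more was required in all 8 mice. DESeq2 called 3 of the 12, where it called 10.9% of all genes. Without PBS 1-1 edgeR called 2, where 11.9% of all genes passed. Actb, the cytoplasmic actin, was at 257, 282, 266 and 264 CPM in LLC1 mice and at 381, 397, 329 and 397 CPM in PBS mice, a log2 fold change of -0.49 ± 0.07 with an FDR of 0.00281. Flna, the actin cross-linker filamin A, had -0.39 ± 0.12 and an FDR of 0.0576, or 0.0179 without PBS 1-1. Of 9 immediate early targets, Egr1, a zinc-finger gene of the Egr family, fell by edgeR, where 8.73% of all genes passed in either direction. It was at 31.1, 37.7, 40.1 and 24.3 CPM in LLC1 mice and at 119, 59.9, 62.6 and 147 CPM in PBS mice (log2 fold change -1.55 ± 0.27, FDR 0.00690). Its relatives Egr2 (-1.54 ± 0.33, FDR 0.0161) and Egr3 (-1.60 ± 0.33, FDR 0.0143) were far less abundant, with means of 0.685 and 0.513 CPM in LLC1 and of 2.02 and 1.64 CPM in PBS mice. They reached the level of 0.627 CPM that the filter on low counts asks of 4 mice in all 4 PBS mice, but in 2 and 1 of the LLC1 mice. They were thus tested through the PBS group, where they are high, and their FDR values are not read as a result, whereas Egr1 reached that level in all 8 mice. The median of the 9 was -0.92, which includes Egr2, Egr3 and Fosb, and it was -0.60 under the requirement of 10 counts in all mice. Fos had -0.92 and an FDR of 0.0778. The Srf mRNA itself did not pass, with a log2 fold change of 0.17 (FDR 0.218), or 0.04 with GC offsets (FDR 0.77). Whether its level bears on these targets was not tested.

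**Figure D5:**
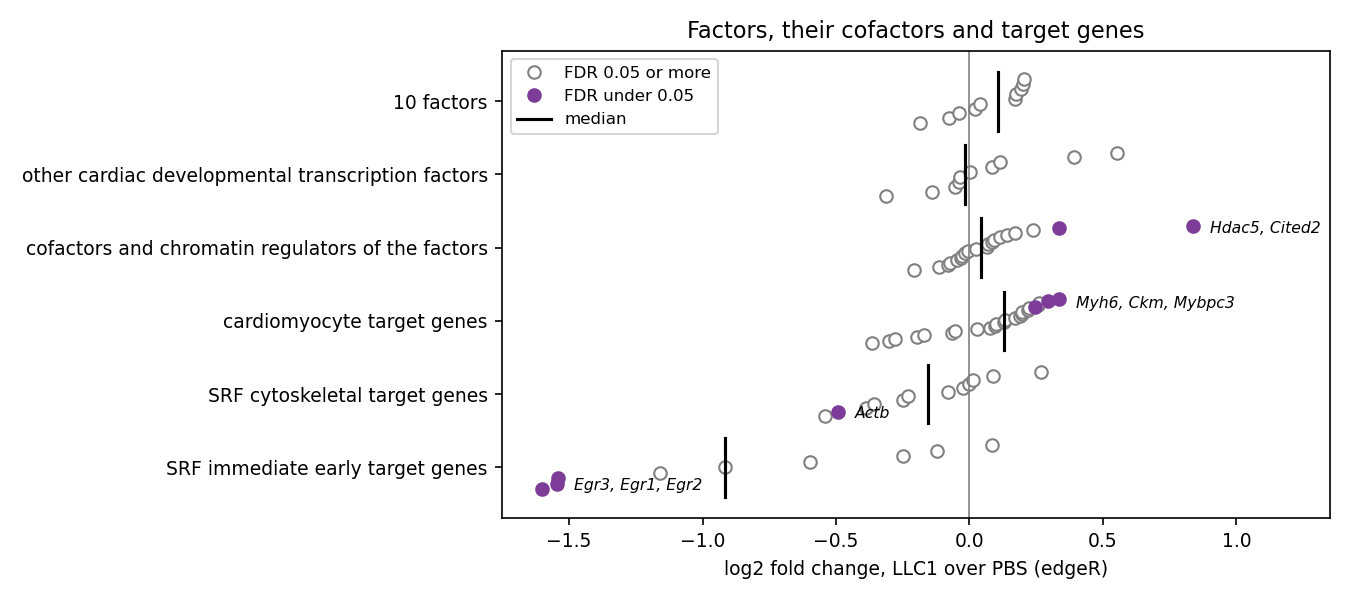
Log2 fold change, LLC1 over PBS (horizontal axis, edgeR, n = 4 per group), of each tested gene of the 10 factors and of 5 related lists (vertical axis; the height within a list only spreads the points). Filled points had an FDR under 0.05 and are named, Egr2 and Egr3 among them although they were tested through the PBS group, and the vertical bars are the medians, from 0.13 for the cardiomyocyte targets to -0.92 for the immediate early targets of SRF.

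Markers of some cell types of the ventricle differed between the groups. By edgeR, cardiomyocyte markers summed to 80900 to 84600 CPM in LLC1 and 69300 to 72900 CPM in PBS mice, without overlap, and 1 of 6 rose (Myh6), while Tnnt2 had an FDR of 0.0526. Myh6 carried most of that sum and of its difference, and without it the other 5 markers summed to 27000 to 30300 against 24600 to 27300 CPM, with overlap. Ryr2 had a log2 fold change of -0.17 (FDR 0.351). Of the 6 endothelial markers 2 fell, Kdr (-0.61, FDR 0.00132) and Emcn (-0.31, FDR 0.0205), and the summed level was 768 to 897 CPM in LLC1 against 892 to 1170 CPM in PBS mice. Of the 6 fibroblast markers 3 fell, Col1a1, Col1a2 and Lum, with sums of 729 to 807 against 782 to 982 CPM. Dcn (0.07, FDR 0.612), Pdgfra (-0.07, FDR 0.654) and Tcf21 (-0.21, FDR 0.331) did not pass. Dcn was the largest part of that sum, with mean levels of 436 CPM in LLC1 and 416 CPM in PBS mice. Of the 6 macrophage markers 2 fell, Mrc1 and Lyz2 (226 to 277 against 251 to 375 CPM). These counts stand beside 8.73% of all genes called. The endothelial, fibroblast and macrophage sums overlapped between the groups through PBS 1-1 alone, and the other PBS mice were at or above 1060, 906 and 322 CPM. Without PBS 1-1, where 11.9% of all genes passed, edgeR called 3 of 6 cardiomyocyte markers, all higher, and 5 endothelial, 3 fibroblast and 5 macrophage markers, all lower. DESeq2 with all mice called 3, 4, 3 and 3 of them, where it called 10.9% of all genes. Smooth muscle and pericyte markers had 0 of 6 called by edgeR and 1 by DESeq2. At an unadjusted edgeR p under 0.05 there were 3, against 25.5% of all genes. Their sums were 784 to 842 CPM in LLC1 against 902 to 1060 CPM in PBS mice. Of the 6 markers of dividing cells listed, 4 were tested, and Mki67 fell (log2 fold change -2.96, FDR 0.00177). It was at 1.05 to 2.63 CPM in LLC1 and 7.53 to 24.1 CPM in PBS mice. Top2a, Cdk1 and Birc5 also had an FDR under 0.05, but they reached the filter's level in all 4 PBS mice and in 3, 0 and 0 LLC1 mice. They passed the filter only with the PBS group, where they are high, so those values are not read as a result. Of the markers of lymphocytes and neutrophils, S100a8 (0.654 to 1.19 CPM in LLC1, 0.118 to 0.601 CPM in PBS mice) and S100a9 (0.926 to 1.45 and 0.235 to 0.601 CPM) were tested through the LLC1 group alone, where they are high, so their FDR values under 0.05 are not read as a result, and the 6 listed summed to 2.06 to 3.69 CPM in LLC1 and 1.33 to 3.09 CPM in PBS mice. Epicardial (0 of 5), atrial (0 of 3 tested, with Bmp10 at 0 in all mice) and erythroid (0 of 5) markers had no call by edgeR or DESeq2. Of the 3 atrial markers tested, 1 had an unadjusted edgeR p under 0.05, against 25.5% of all genes. PBS 1-1 had the lowest endothelial, fibroblast and macrophage sums of the PBS mice and the highest cardiomyocyte sum. The part of cell composition in the levels of the 10 factors was not tested.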

How the data were processed

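Ventricular mRNA of 8 mice was sequenced by the authors (TruSeq v2 libraries, 150-base paired-end reads, Illumina), and raw counts per gene were deposited, without normalization, beside a gene length in bases. The submitters' processing notes name CASAVA, STAR, featureCounts and mm10, the build to which the reads were aligned. Versions and roles of the tools, annotation and strand setting are not given in the sources used here. Library totals of 12480706 to 19747596 counts set the precision, and the factors had between 243 and 4653 counts per library. A gene at 1 CPM rests on few counts, so the lowest targets are the least precise. Groups were taken from the stated treatment. The labels do not say how the replicate codes were given, and p-values measure the spread between these mice only.

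Counts were compared with edgeR 4.0.16 in R 4.3.3 (filterByExpr, TMM, estimateDisp, glmQLFit, glmQLFTest) over 16111 genes with Benjamini-Hochberg adjustment and a threshold of 0.05. Standard errors are the absolute log2 fold change divided by the square root of F. CPM are TMM-normalized. Ratios used counts per length and exact permutation over 70 arrangements. Alternatives were DESeq2 1.42.0, limma-voom (limma 3.58.1), other scalings and filters, GC and length offsets (loess span 0.3, GENCODE M21 transcripts), the first number of the code as covariate, and each mouse left out. Steps were tested on simulated data. Python 3.11.15 was used for summaries.

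The factors and lists were chosen with earlier results of these data known. Genes named are the 10 factors and, of each other list, those with an FDR under 0.05 (at most 6, lowest FDR first) or, where fewer than 2 passed, the 2 with the lowest p. For likeness, the 3 nearest genes of the factor with the lowest p and of that with the highest level per length were taken. Hdac4, Hdac7, Hdac9, Myocd, Zfpm2, Nppb, Fos, Fosb, Ryr2, Ttn, Isl1, Nkx2-6 and Bmp10 were chosen after their values were seen. So were Actn2, Tnnc1, Myl3, Dcn, Pdgfra, Tcf21 and the genes overlapping a factor. 7 of the 10 factors matched the RefSeq promoter table by symbol.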

Additional observations from a re-analysis of the deposited data

Results flagged for a closer look

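Within each group of 4 mice, the highest or lowest mouse was compared with the others for the 10 factors, the 5 ratios and the named genes of the other lists. Of 98 groups so examined, 5 held a mouse whose gap to its nearest neighbour was a larger share of the whole range than Dixon's 95% limit for 4 samples allows, and chance alone gives about 1 in 20. Nkx2-5 in PBS 1-1 was 56.7 CPM, where the other PBS mice were at 25.8 to 29.4 CPM. The ratio of Mef2c to Mef2a in PBS 1-3 was 0.297, against 0.331 to 0.336 in the other PBS mice. Myh6 in LLC1 1-5 was 56500 CPM, against 53500 to 53900 CPM in the other tumor-bearing mice. S100a9 in PBS 1-1 was 0.601 CPM, against 0.235 to 0.295 CPM. Top2a, a marker of dividing cells, was 1.42 CPM in LLC1 1-5, against 0.529 to 0.658 CPM in the other tumor-bearing mice. PBS 1-1 held 2 of the 5, but 5 of 98 is about the share that chance gives, so these flags do not set it apart. S100a9 and Top2a also passed the filter on low counts only with the group where they are high. PBS 1-1 is the mouse whose removal changed the calls of Nkx2-5, Gata6 and Srf. The cause of its position was not tested.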

How the results depend on the processing

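Of the 22 alternatives, 17 left all 10 factors above the FDR threshold. Only with the first number of the code as covariate was 1 factor called (Tbx5, 0.27), and the other calls needed PBS 1-1 to be left out. Over the sets that left out 1 mouse, the number of factors called ran from 0 to 3, the genes called overall from 546 (without PBS 1-3) to 1923 (without PBS 1-1) and the listed genes from 16 to 35. The overall count was 731, 620, 686 and 811 without LLC1 1-2, 1-3, 1-5 and 2-2. The log2 fold change over these sets ran from -0.11 to 0.026 for Gata4, 0.14 to 0.31 for Gata6, 0.075 to 0.53 for Nkx2-5, 0.13 to 0.25 for Srf, -0.13 to -0.045 for Mef2a, -0.24 to -0.14 for Mef2c, 0.11 to 0.23 for Mef2d, 0.13 to 0.26 for Tbx5, -0.0697 to 0.0747 for Tbx20 and -0.13 to 0.16 for Hand2. The ratios ran from 0.16 to 0.32 (Gata6 to Gata4), 0.16 to 0.34 (Mef2d to Mef2a), 0.18 to 0.31 (Srf to Mef2a), -0.15 to -0.081 (Mef2c to Mef2a) and from 0.046 without PBS 1-1 to 0.34 without PBS 2-5 (Tbx5 to Tbx20), and the median of the atrial markers from -0.25 to 0.32. Total-count scaling turned Tbx20 (-0.028) and Hand2 (-0.0071), moved the median of the cardiomyocyte targets to 0.081, and called 225 genes higher and 793 lower, against 663 and 743 with TMM. The covariate turned Hand2 (-0.0029), and GC offsets turned Mef2a (0.021) and Hand2 (-0.051). The atrial median was -0.088 with limma-voom and -0.17 with genes of at least 10 counts in every mouse, a filter that left no lymphocyte or neutrophil marker to test. With M21 lengths the level per kilobase was 33.0 for Gata4, 14.8 for Gata6, 36.1 for Mef2a, 10.7 for Mef2c, 36.7 for Mef2d, 16.5 for Tbx20 and 43.7 for Srf. Alternatives chosen after seeing the data combined the removal of PBS 1-1 with GC offsets (2 factors called, Gata6 0.26 and Nkx2-5 0.27, Mef2a turned to 0.0135), with DESeq2 (3 called, Gata6 0.31, Nkx2-5 0.53 and Srf 0.25, Gata4 turned to 0.027) and with total-count scaling (2 called, Mef2c -0.25 and Nkx2-5 0.43, Tbx20 turned to -0.017, 2292 genes overall). The causes were not tested. No paired analysis was possible because the groups share only 1 replicate code, 1-3. Depth limits the genes of few counts, such as Egr3 with at most 29 counts in a library.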

Other observations

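Some of the factors varied together between mice of the same group, and others in opposite directions. Over the 45 pairs, 20 had a negative correlation with 8 mice and 23 without PBS 1-1. Deviations of log2 CPM from the group mean correlated most for Gata6 and Nkx2-5 (Pearson r 0.927 over 8 mice), Mef2a and Tbx20 (0.904), Gata4 and Tbx20 (0.865) and Nkx2-5 and Srf (0.850), and were most opposed for Srf and Tbx5 (-0.799). Without PBS 1-1 the pairs with Nkx2-5 went to 0.411 and 0.270, whereas Mef2a with Tbx20 (0.918), Gata4 with Tbx20 (0.83) and Srf with Tbx5 (-0.638) stayed similar. Other pairs moved further without that mouse, such as Gata4 and Gata6, which went from 0.390 to -0.968 and Gata4 and Hand2 from -0.142 to -0.907. These values describe 8 libraries that share depth and base-composition trends.

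Among 11369 genes with a mean of at least 5 CPM, those whose deviations were most like Mef2c were Cnep1r1 (r 0.976), Zdhhc17 (0.976) and Ahr (0.973), and those most like Mef2d, the factor with the highest level per length, were Zfp169 (0.995), Polr2a (0.988) and Celsr2 (0.986). None of the 6 passed the edgeR test between the groups, with FDR values between 0.201 for Cnep1r1 and 0.917 for Celsr2. With 8 mice, 3 nearest genes taken from so many have high values by selection.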
